A study of Mus musculus with 4 samples.

Results

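The albumin family is described here through 4 genes of the count table, taken by their Ensembl IDs: Alb (ENSMUSG00000029368), Afp (ENSMUSG00000054932), Afm (ENSMUSG00000029369) and Gc (ENSMUSG00000035540), out of 53465 IDs in all. Alb and Afp had been chosen by their values in these data: in an earlier look they had the most reads among the genes lower with the Usp5 guide in both the inputs and the precipitates. Afm and Gc were named with them. The ratios between guides are therefore a description and carry no test. The RNA came from Hepa 1-6 cells, a mouse hepatocellular carcinoma line, with a control guide (sgcontrol, genotype WT) or a guide for Usp5 (sgUsp5, genotype Usp5 Knockdown). Usp5 encodes a deubiquitinating enzyme. From each lysate, 1 library was made of the input RNA and 1 of the RNA pulled down by an antibody against YTHDF1, a cytoplasmic reader of N6-methyladenosine in mRNA (RNA immunoprecipitation, RIP). The 4 groups thus held 1 library each, and no difference between guides has a replicate check. A control precipitate was not used here. The labels do not say whether the cells with the Usp5 guide were a clone or a pool.

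Albumin family proteins are carriers that the liver secretes into blood. Albumin (Alb) carries fatty acids, bilirubin and hormones. Alpha-fetoprotein (Afp) is its counterpart in the fetal liver and yolk sac; the gene is shut down after birth and is often active again in hepatocellular carcinoma. Afamin (Afm) binds vitamin E and Wnt proteins, and the vitamin D-binding protein (Gc) carries vitamin D metabolites and binds free actin. HNF1 transcription factors bind the proximal promoters of Alb and Afp.

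All 4 genes lie on mouse chromosome 5. RefSeq (GRCm38.p6, the assembly also called mm10) places Alb at chr5:90460870-90476602, Afp at chr5:90490714-90508907 and Afm at chr5:90518949-90553544, with gaps of 14111 and 10041 bases and 0 annotated genes between them. Gc lies apart, at chr5:89417511-89457898, with 1002971 bases and 12 annotated genes, 4 of them protein-coding, between it and Alb. Alb, Afp and Afm are read from the plus strand and Gc from the minus strand.

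The 250 bases before each RefSeq gene start are shown as a description, and any link to the read counts was not tested. Each line runs 5′ to 3′ along the gene's strand. The windows are chr5:90460620-90460869 (+) for Alb, chr5:90490464-90490713 (+) for Afp, chr5:90518699-90518948 (+) for Afm and chr5:89457899-89458148 (-) for Gc. Capitals mark matches to GTTAATNAT, which are the first 9 letters of the HNF1 consensus.
Alb: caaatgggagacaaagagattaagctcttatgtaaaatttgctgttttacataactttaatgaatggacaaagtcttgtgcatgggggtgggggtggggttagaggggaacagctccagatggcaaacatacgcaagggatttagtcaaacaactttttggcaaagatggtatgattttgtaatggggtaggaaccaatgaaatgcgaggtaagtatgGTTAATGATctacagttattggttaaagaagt
Afp: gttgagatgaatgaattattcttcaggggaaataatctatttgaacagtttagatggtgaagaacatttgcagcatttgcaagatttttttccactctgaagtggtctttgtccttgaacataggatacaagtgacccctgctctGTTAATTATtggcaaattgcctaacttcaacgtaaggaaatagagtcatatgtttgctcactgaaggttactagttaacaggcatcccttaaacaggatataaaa
Afm: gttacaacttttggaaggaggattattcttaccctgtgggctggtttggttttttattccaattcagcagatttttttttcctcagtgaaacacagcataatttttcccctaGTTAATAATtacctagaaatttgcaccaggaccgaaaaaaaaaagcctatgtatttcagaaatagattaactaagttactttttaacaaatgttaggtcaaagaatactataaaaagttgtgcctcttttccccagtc
Gc: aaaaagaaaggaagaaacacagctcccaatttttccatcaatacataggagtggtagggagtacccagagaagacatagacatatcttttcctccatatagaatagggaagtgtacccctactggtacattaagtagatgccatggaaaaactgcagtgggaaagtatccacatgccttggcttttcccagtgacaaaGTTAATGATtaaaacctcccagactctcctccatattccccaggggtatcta

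GTTAATNAT was searched on both strands, and the choice was made after these sequences had been seen. Each of the 4 windows held 1 match, as did 242 of the 32851 RefSeq windows of the same length (0.737%). In Alb the match began 32 bases before the gene start, in Gc 52 bases, in Afp 105 bases and in Afm 138 bases. CCAAT, on either strand, was in all 4 windows and in 33.9% of all windows, and the last letters of the Afp match overlap it. TATAAA was in the Afp and Afm windows (12.4% of all windows), and AGGTCA in the Afm window alone among these 4 (14.0% of all windows). A match of letters is a description and does not show that a factor binds.

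The control input held 30804293 counts, the Usp5-guide input 31751069, the control RIP 33941019 and the Usp5-guide RIP 29898171. The columns give Ensembl IDs without names, and the reference table pairs 0 of its 49997 genes with such IDs. Counts of Usp5 as a check of the label, of Ythdf1 and of marker genes of other cell types were therefore not analysed here. Of the hepatocyte markers, only Alb and Afp themselves could be read, and both were among the most read genes of the control cells. Their read number was part of what chose them, so it is no check of cell type. The 4 genes took 0.203% of all counts in the control input (95% Wilson interval 0.201 to 0.205), 0.0949% (0.0939 to 0.0960) in the Usp5-guide input, 0.132% (0.131 to 0.133) in the control RIP and 0.0457% (0.0449 to 0.0465) in the Usp5-guide RIP. Intervals in this text cover counting error only, and reads copied by PCR are not independent molecules.

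Alb had 24122 reads in the control input, 12704 in the Usp5-guide input, 16975 in the control RIP and 5810 in the Usp5-guide RIP. These are 845, 413, 476 and 183 CPM, the usual read count scaled to library size, here with TMM factors. Within each library, Alb held rank 152, 413, 293 and 1126 by reads, in the same order. It was highest in the control input and lowest in the Usp5-guide RIP, and in either fraction the cells with the Usp5 guide had fewer reads.

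Afp, the fetal member, had 38097 reads in the control input, 17324 in the Usp5-guide input, 27499 in the control RIP and 7814 in the Usp5-guide RIP. Its CPM were 1335, 563, 771 and 247. It ranked 72nd by reads in the control input, 258th in the Usp5-guide input, 132nd in the control RIP and 762nd in the Usp5-guide RIP. The order of the libraries was the same as for Alb.

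Gc was read far less: 304 reads in the control input, 115 in the Usp5-guide input, 285 in the control RIP and 30 in the Usp5-guide RIP. These are 10.7, 3.74, 7.99 and 0.947 CPM. The control libraries lay close together, and the Usp5-guide RIP stood lowest, as for Alb and Afp.

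Afm had 0 reads in both inputs, 1 read in the control RIP and 4 in the Usp5-guide RIP. A count of 0 allows up to 3 counts, or 0.105 CPM in the control input and 0.0975 CPM in the Usp5-guide input. Afm was the only member below a mean of 1 CPM over the libraries (0.0386 CPM), the minimum for the comparisons across genes. Between the RIP libraries its ratio, Usp5 guide over control, was 4.50 with a counting interval of 0.446 to 222, which includes no difference. Read counts of different genes were not compared as levels, because transcript lengths were not used here.

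**Figure D1:**
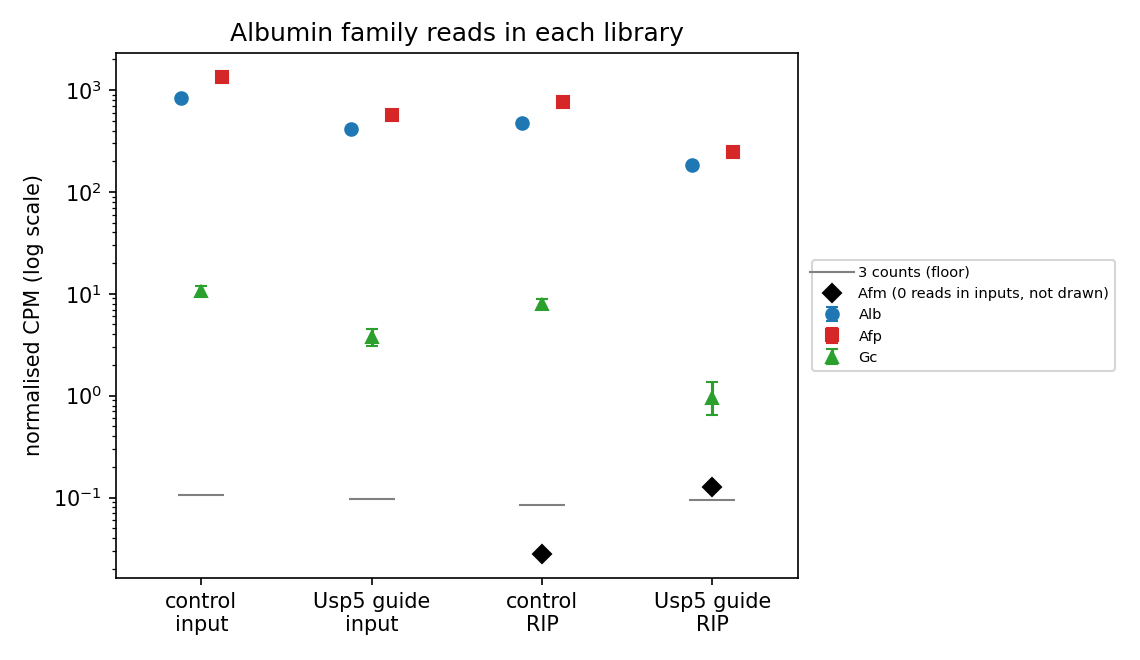
Normalised CPM (log axis) of Alb, Afp and Gc in each of the 4 libraries, with exact 95% counting intervals (within the symbol for Alb and Afp). The CPM of 3 counts is a grey bar. Afm is drawn without an interval and in the RIP libraries only, since it had 0 reads in the inputs. Alb, Afp and Gc are lower with the Usp5 guide in both fractions, and Afm lies near or below the floor.

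The first comparison was between guides in the inputs, the total RNA of the lysates. With the Usp5 guide, Alb RNA was 2.05-fold lower (log2 ratio -1.03, counting interval -1.06 to -1.003), Afp RNA 2.37-fold lower (-1.25, -1.27 to -1.22) and Gc RNA 2.84-fold lower (-1.51, -1.83 to -1.20). A gene was called lower when it was at least 2-fold lower with a 95% counting interval below no difference. By that rule 3 of the 4 members were called lower, beside 12.2% of all 12927 genes at a mean of at least 1 CPM. Nothing is read from this count, since Alb and Afp were chosen by it. In bulk RNA, fewer cells with these transcripts and less transcript per cell cannot be told apart.

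The scatter between the inputs was wider than counting error. For genes at a mean log2 CPM of 0 to 6, the squared deviation from equal expression was 57.9 times the binomial variance (median, scaled to chi-square). Intervals widened by that factor were -1.27 to -0.79 for Alb and -1.45 to -1.04 for Afp, both below no difference. For Gc the widened interval was -4.25 to 1.05, which includes it. Alb and Afp, at a mean log2 CPM of 8.71 and 9.26, lie above the range that gave the factor. The log2 ratios of genes at a mean log2 CPM of 8 or more had an SD of 0.29 in the inputs. The widened intervals of Alb and Afp, here and below, may therefore be too narrow. The Alb call rests on the scaling: with library totals its log2 ratio was -0.97, under 2-fold.

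In the RIP libraries the same 3 genes were lower with the Usp5 guide, with larger ratios. Afp was 3.13-fold lower (log2 ratio -1.64, counting interval -1.68 to -1.61). Alb was 2.60-fold lower (-1.38, -1.42 to -1.33). Gc was 8.32-fold lower (-3.06, -3.67 to -2.53), from 285 to 30 reads. The share of all tested genes called lower in this pair was 4.64%. For the precipitates that scatter, from the same range of abundance, was 18.4-fold the binomial value. With intervals widened by it the ratios ran from -1.80 to -1.49 for Afp, -1.56 to -1.19 for Alb and -5.76 to -0.70 for Gc. All 3 kept the call, though Alb and Afp again lie above the range that gave the factor.

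**Figure D2:**
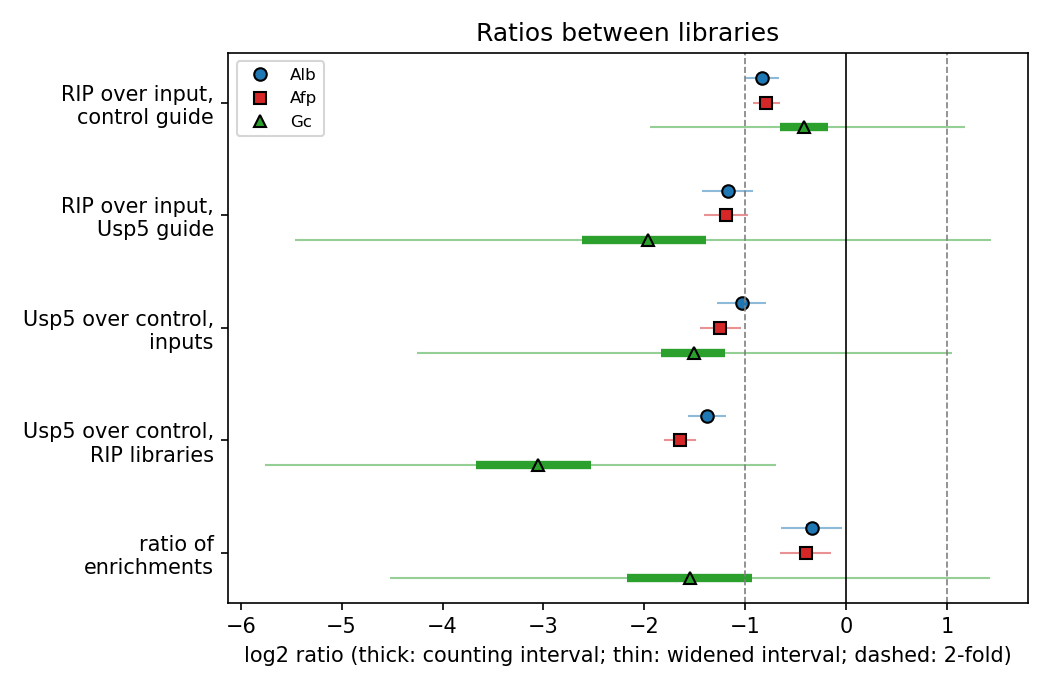
Log2 ratio of Alb, Afp and Gc in each comparison, with the counting interval (thick), the interval widened by the scatter between guides (thin) and 2-fold (dashed). The guide ratios are below -1 in both fractions for all 3 genes, and the thin lines of Gc cross no difference everywhere but in the RIP pair.

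The position of Alb and Afp among genes of high abundance is also part of what chose them and is given as a description. At a mean log2 CPM of 8 or more, 736 genes were measured, and their log2 guide ratios had an SD of 0.29 in the inputs and 0.20 in the RIP libraries. Afp had the lowest and Alb the second lowest ratio of these genes in both pairs. They were the only 2 of the 736 called lower in the inputs, and the only 2 called lower in the RIP libraries. The next gene stood at -0.98 in the inputs and -0.88 in the RIP libraries.

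**Figure D3:**
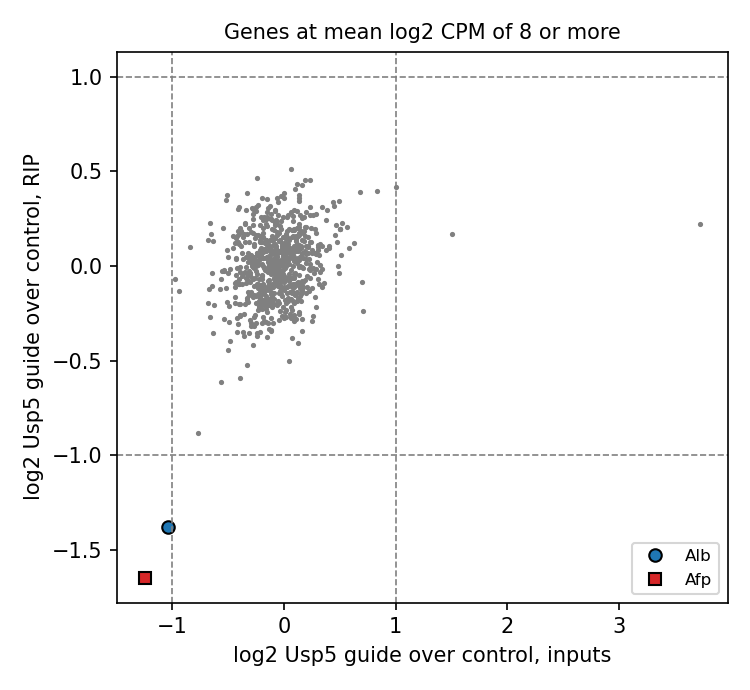
Log2 ratio of the Usp5 guide over control in the inputs (x axis) against that in the RIP libraries (y axis) for the 736 genes at a mean log2 CPM of 8 or more, with 2-fold dashed. Afp and Alb lie alone in the lower left corner, past 2-fold on both axes.

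A wider set, at a mean log2 CPM of 5 or more, held 5126 genes. There 46 genes were called lower and 52 higher in the inputs, and 4 lower and 2 higher in the RIP libraries. Exactly 2 genes were called lower in both pairs, and these were Alb and Afp. Nothing is read from this, since both were chosen as the most read genes lower in both pairs. Afp had the lowest and Alb the second lowest RIP ratio of the 5126, but in the inputs they ranked 10th and 40th from the lowest. Over all 12927 genes, 216 were called lower in both pairs, and Gc was among them with Alb and Afp. With the widened intervals 10 genes were lower in both pairs, and Gc was not among them.

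Gc, at a mean log2 CPM of 2.07, lies where single libraries scatter more. In the class at a mean log2 CPM of 2 to 4 (3115 genes), the log2 ratios had an SD of 1.09 between the inputs and 0.54 between the RIP libraries. Gc ranked 213th from the lowest in the inputs of that class. In the RIP libraries it had the lowest ratio of the 3115 genes, with the next gene at -2.59. Gc lies near the lower edge of that class, however. In the class under 2 the log2 ratios between the RIP libraries had an SD of 1.62. Over all 12927 genes Gc ranked 103rd from the lowest in the RIP libraries.

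**Figure D4:**
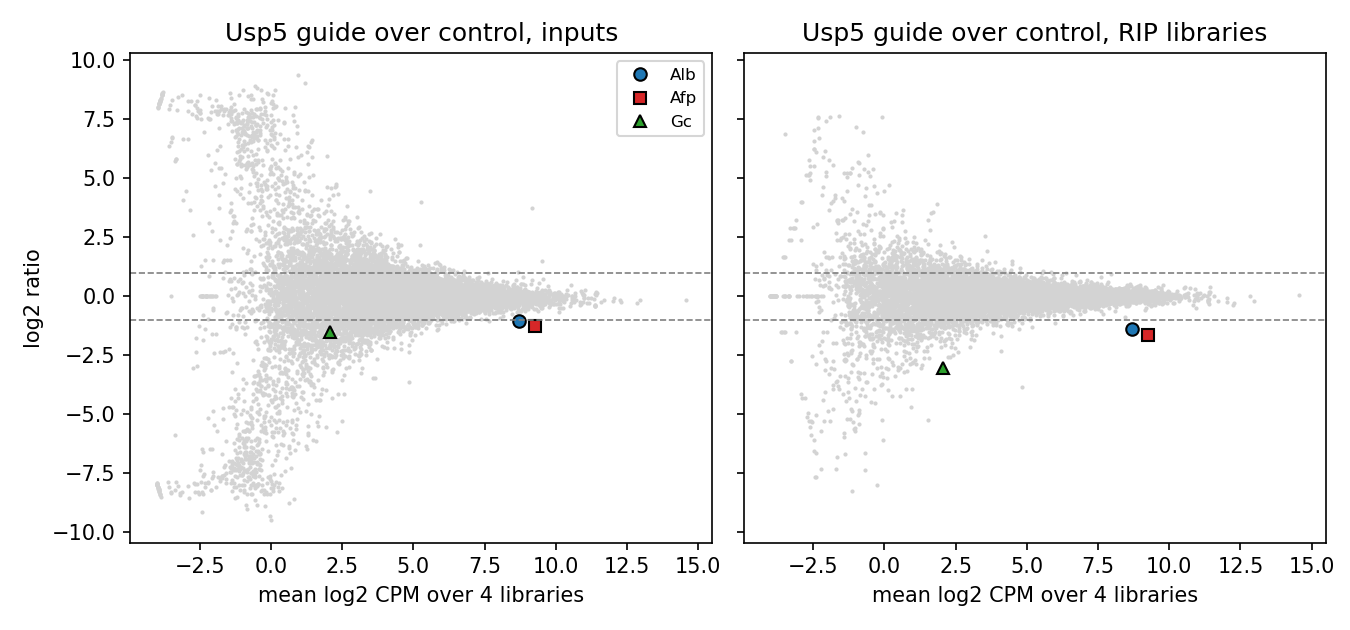
Log2 ratio of the Usp5 guide over control (y axis) against mean log2 CPM over the libraries (x axis) for 12927 genes (grey) in the inputs (left) and the RIP libraries (right), with 2-fold dashed. The cloud narrows with abundance, and Alb and Afp lie at or below its lower edge in both panels, Gc in the right panel.

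Ratios of 2 genes within a library need no scaling between libraries. Afp reads per Alb read were 1.58 (exact counting interval 1.55 to 1.61) in the control input and 1.36 (1.33 to 1.40) in the Usp5-guide input. In the RIP they were 1.62 (1.59 to 1.65) in control and 1.34 (1.30 to 1.39) in Usp5-guide cells. Both libraries of the Usp5 guide thus lay below both control libraries. The input and RIP of a guide share a lysate, so they are not independent of each other. Afp was lower than Alb with the Usp5 guide by a further -0.21 on the log2 scale in the inputs (-0.25 to -0.17) and -0.27 in the RIP libraries (-0.32 to -0.21). With the widened variance the first interval (-0.52 to 0.10) included no difference and the second (-0.51 to -0.03) did not. Between RIP and input the log2 change of this proportion was 0.04 (0.00 to 0.07) in control cells and -0.02 (-0.08 to 0.04) in Usp5-guide cells.

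Gc reads per 1000 Alb reads were 12.6 (11.2 to 14.1) in the control input and 9.05 (7.47 to 10.9) in the Usp5-guide input. In the RIP libraries they were 16.8 (14.9 to 18.9) and 5.16 (3.48 to 7.38). Gc relative to Alb was thus highest in the control RIP and lowest in the Usp5-guide RIP. The log2 change between guides in the RIP, -1.70 (-2.25 to -1.16), had a widened interval of -4.03 to 0.63, which includes no difference.

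**Figure D5:**
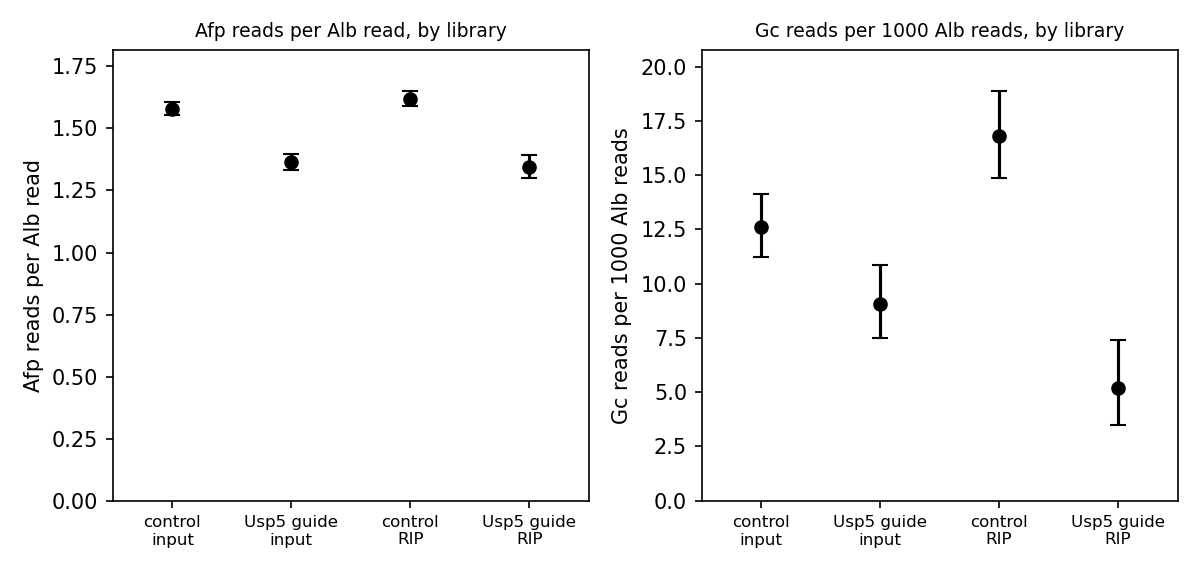
Afp reads per Alb read (left) and Gc reads per 1000 Alb reads (right) in each library, with exact 95% counting intervals, on axes from 0. The left panel separates the guides (1.58 and 1.62 against 1.36 and 1.34), and the right panel is lowest in the Usp5-guide RIP at 5.16.

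Recovery with the YTHDF1 antibody was compared by RIP over input in each line. In control cells Alb had a log2 enrichment of -0.83 (counting interval -0.86 to -0.80), Afp of -0.79 (-0.81 to -0.77) and Gc of -0.41 (-0.65 to -0.18). By counting intervals all 3 lay below no difference, but 0 of these 3 were called lower, beside 15.2% of all tested genes. The widened interval of Gc (-1.95 to 1.18) included no difference, and those of Alb and Afp did not. Afm was below the minimum for this comparison. In Usp5-guide cells the values were -1.17 (-1.22 to -1.13) for Alb, -1.19 (-1.23 to -1.15) for Afp and -1.96 (-2.61 to -1.39) for Gc. There all 3 were called lower, beside 13.8% of all tested genes and 9.24% of those at a mean log2 CPM of 8 or more. Nothing is read from this count, since the Usp5-guide counts that chose Alb and Afp enter these ratios. With widened intervals Alb and Afp were still called lower and Gc (-5.46 to 1.44) was not. The widening factors came from pairs between guides, so they do not measure scatter between a RIP and an input library. In Usp5-guide cells the log2 enrichments of genes at a mean log2 CPM of 8 or more had an SD of 0.74.

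RIP over input is the only contrast with 2 lysates. It was fitted over both with the guide as a term (quasi-likelihood test of edgeR on all 4 libraries, leaving 1 residual degree of freedom, with Benjamini-Hochberg adjustment over 12927 genes). The error of this fit for a gene draws on the disagreement between its 2 guide ratios and on a spread shared across genes. Alb and Afp were chosen for being lower in both, so their p-values are not independent of that choice and are given as a description. From input to RIP, Alb had a log2 ratio of -0.9996 (adjusted p = 0.000802) and Afp of -0.991 (adjusted p = 0.000721), each lower in 2 of 2 lysates. Gc had a log2 ratio of -1.18 (adjusted p = 0.341), also lower in both, though its widened intervals included no difference in each. By this test 11.3% of all tested genes were lower in the RIP. The values depend on pairing each RIP with its own input: without the guide in the model, edgeR gave adjusted p = 0.227 for Alb and 0.320 for Afp. Among the 736 most abundant genes Alb ranked 146th and Afp 160th from the lowest in control cells, and 31st and 29th in Usp5-guide cells.

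Whether recovery itself differed between guides was described by the ratio of enrichments, which is the RIP ratio between guides over the input ratio. It was -0.34 for Alb (counting interval -0.40 to -0.29, widened -0.64 to -0.04), or 1.27-fold lower with the Usp5 guide. For Afp it was -0.40 (-0.44 to -0.35, widened -0.65 to -0.15), or 1.32-fold lower. Both intervals were below no difference but neither gene reached 2-fold. Among the 736 genes at a mean log2 CPM of 8 or more, Alb ranked 38th and Afp 24th from the lowest. These genes had an SD of 0.30 and a 1st percentile of -0.53, so both ratios lay within their spread. Gc was 2.93-fold lower (log2 ratio -1.55, -2.17 to -0.93) and was the only tested member called, beside 13.8% of all tested genes. In its class, at a mean log2 CPM of 2 to 4, 19.6% of 3115 genes were called lower. Gc ranked 292nd from the lowest there, so its ratio also lay within the spread of its class. Its widened interval, -4.52 to 1.43, included no difference.

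The genes most like Alb and Afp over the 4 libraries were ranked by the Euclidean distance between log2 CPM centred on each gene's mean. Alb and Afp were 0.24 apart, and 0 of the other 5124 genes at a mean log2 CPM of 5 or more lay nearer to either of them. Likeness in the guide ratios, by which both were chosen, enters this distance. The 2 next genes were the same for both, at distances of 0.27 and 0.38 from Alb and 0.47 and 0.62 from Afp. ENSMUSG00000022425 had 1808 reads in the control input, 1218 in the Usp5-guide input, 1500 in the control RIP and 535 in the Usp5-guide RIP, giving log2 guide ratios of -0.68 and -1.32. ENSMUSG00000067001 had 1712, 1153, 1264 and 565 reads in that order, with log2 guide ratios of -0.68 and -0.99. Gc stood at a distance of 1.25 from Alb and 1.03 from Afp, and 930 and 42 of the 5124 genes lay nearer to Alb and to Afp than Gc did. Seen from Gc, 29 of 12924 other genes lay nearer than Alb and 17 nearer than Afp.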

How the data were processed

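Reads per gene were measured in 4 libraries. The authors deposited raw counts for 53465 Ensembl IDs; HISAT2 2.1.0, featureCounts 1.6.3 and the mm10 build come from the submitters' processing notes, while the annotation release and the handling of strand, duplicates and multiple matches are not given in sources used here. Columns were matched by the short names in the labels (0 left over). Members were taken by ID, with symbols from the rule that defines the family. Members, lists and tests were chosen with earlier results of these data known. Gene lists fixed by symbol and the chromosome neighbours could not be matched to IDs.

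Counts were scaled with TMM over the 4 libraries (edgeR 4.0.16, R 4.3.3; factors 0.926, 0.969, 1.05 and 1.06 for control input, Usp5-guide input, control RIP and Usp5-guide RIP). Log2 ratios had 0.5 counts added. Intervals are exact Clopper-Pearson intervals on the split of reads, and for ratios of ratios come from reciprocal counts. Widened intervals divide counts by the scatter measured between guides first. The rule for single genes took all members and the nearest patterns to Alb and Afp; 2 of those IDs are printed. RIP over input was fitted with edgeR's quasi-likelihood test, with DESeq2 1.42.0 as an alternative. The code was tested on simulated data. Promoters came from RefSeq (GRCm38.p6), where 4 of 4 members matched.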

Additional observations from a re-analysis of the deposited data

How the results depend on the processing

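No log2 ratio of Alb, Afp or Gc changed sign under DESeq2 size factors, upper-quartile factors, library totals, 2 counts added, the other filters or the other call rules; 111 of the 120 recomputed values stayed within the counting interval and 9 moved beyond it, though filters and call rules cannot move these values. Library totals shifted the median log2 ratio of all genes from 0.03 to 0.21 for RIP over input in control cells and from 0.02 to 0.15 in Usp5-guide cells. Under them the control enrichments were -0.65 (Alb) and -0.61 (Afp), and 2 members instead of 3 were called lower in the inputs. Widened intervals left 2 members lower in the inputs, 2 in Usp5-guide RIP over input and 0 in the ratio of enrichments. The number of all genes called lower (control RIP over input, Usp5-guide RIP over input, inputs, RIP libraries, ratio of enrichments) was 1967, 1783, 1583, 600 and 1780. It was 1089, 850, 112, 68 and 533 with widened intervals and 1203, 997, 631, 117 and 787 at a mean of at least 5 CPM. With at least 10 reads in all it was 3070, 2811, 2832 and 2063, and the ratio of enrichments stayed within 1.5 times. The filters and intervals change these numbers by construction.

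In edgeR's test of RIP over input, the fit without the guide as a term, which pairs each RIP with its own input, gave adjusted p = 0.227 for Alb and 0.320 for Afp. Over the other alternatives, DESeq2 included, adjusted p ran from 3.66e-11 to 0.00415 for Alb, from 4.22e-12 to 0.00444 for Afp and from 0.228 to 0.440 for Gc. Leaving out a library was not run, since each group holds 1. Scaling Afp and Alb reads to coding length was not run, because lengths were not used here. Depth limits Afm and, in the Usp5-guide RIP, Gc.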
